A study of Caenorhabditis elegans with 12 samples.

Results

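Whether loss of spr-4 and spr-3 changed gene expression differently in worms with a daf-2 mutation and in worms without it was examined in RNA-seq of whole Caenorhabditis elegans at day 10. The 12 libraries fall into 4 genotypes of 3 biological replicates, all in the N2 background: N2 itself, daf-2, the double mutant spr-4;spr-3 and the triple mutant spr-4;spr-3;daf-2. Worms were grown at 20 °C and RNA came from 100 worms per strain. The sources used here do not name the alleles, so how much function each mutation leaves is not known from them. The quantity described is the interaction, the log2 fold change of the triple mutant against daf-2 minus that of the double mutant against N2, for the 18342 of 46739 listed genes that passed the count filter, over all 12 of 12 libraries.

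The product of daf-2 is the worm's receptor for insulin-like peptides. When the receptor is weakened, a kinase cascade through AGE-1, PDK-1 and AKT no longer keeps the FOXO transcription factor DAF-16 out of the nucleus, and daf-2 mutants are long-lived, store fat, resist stress and make less yolk. SPR-3 and SPR-4 are zinc-finger proteins whose loss relieves the defects of presenilin (sel-12) mutants. They act with a CoREST-like repressor complex and have been compared with the vertebrate repressor REST. An interaction of 0 means that the fold changes of spr loss and of daf-2 multiply. A positive value means that the triple mutant stood above that product and a negative value that it stood below it, so a gene lowered by each mutation that is not lowered further in the triple mutant has a positive interaction. The same number is read the other way as the daf-2 effect without the spr genes minus the daf-2 effect with them.

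Library depth ran from 11892808 to 46493665 counts. Pearson correlations of log2 CPM (a gene's counts as a share of its library's total, scaled by TMM) were 0.973 to 0.989 within genotypes and 0.944 to 0.976 between them. Replicate 2 of the double mutant stood apart: on the third principal component, which holds 14.6% of the squares, it was at -0.03 while its other replicates were at 0.32 and 0.30. On muscle and yolk genes it lay nearer than they did to N2, and also to daf-2 and the triple mutant. All marker lists used for tissues were detected. Pan-neuronal markers summed to 1448 to 1759 CPM over the 12 libraries, muscle sarcomere genes to 6529 to 14476 CPM and intestine markers to 2104 to 9554 CPM. In whole worms, fewer cells of a type and less RNA per cell cannot be told apart.

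**Figure D1:**
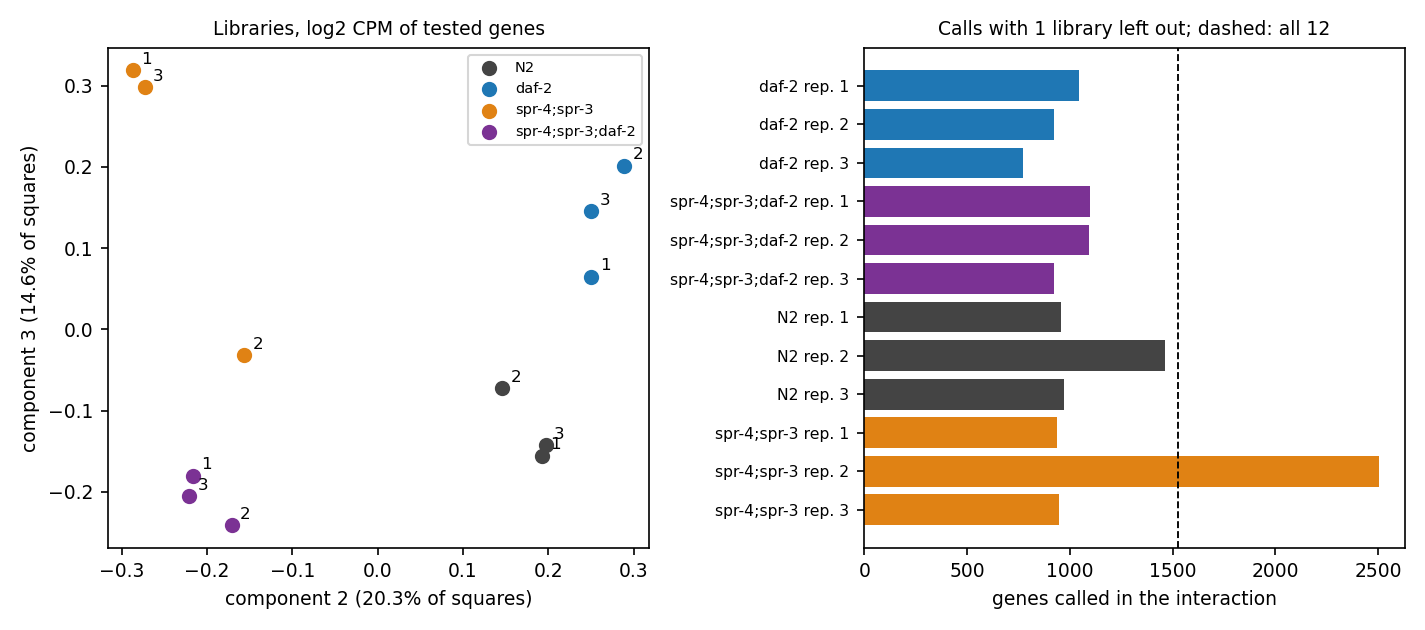
Left, the 12 libraries on components 2 and 3 of log2 CPM, coloured by genotype and numbered by replicate. On each component, replicate 2 of the double mutant lies between its other replicates and N2, and in the panel it is nearest to the triple mutant. Right, bars of the number of genes called in the interaction when 1 library is left out, from 772 without daf-2 replicate 3 to 2505 without double mutant replicate 2, with the dashed line at the 1526 of all 12 libraries.

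Of the 18342 genes tested, 1526 (8.32%) had an interaction at an adjusted p of at most 0.05, called from here on. The interaction was positive for 897 genes (4.89%) and negative for 629 (3.43%). Its median over all genes tested was -0.05 on the log2 scale. The called genes were spread around a median size of 1.16 for positive and 1.103 for negative interactions, and 157 positive and 83 negative ones were at least 4-fold from the product. At an unadjusted p under 0.05 there were 4295 genes. The count rests on the set of libraries: 640 of the 1526 calls held in all 12 fits that leave out 1 library, 772 genes were called without daf-2 replicate 3, and 2505 of 18975 (13.2%) without double mutant replicate 2, of which 1460 were among the 1526.

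Loss of the spr genes changed 2461 genes (13.4%) where daf-2 was mutant and 2141 genes (11.7%) where it was intact, in comparisons that share no library. Over all tested genes the log2 fold changes of these comparisons had a Pearson r of 0.22 and a Spearman rho of 0.17, given as a description since genes are not independent. Of 655 genes called in both, 507 moved the same way and 148 in opposite directions. Of the 1526 interaction genes, 663 were called only in the daf-2 background, 467 only in the N2 background, 231 in neither, 148 in both with opposite signs and 17 in both with the same sign. The step of daf-2 itself was called for 3772 genes (20.6%) against N2 and for 2739 (14.9%) against the double mutant. Read by that step, 758 interaction genes differed between daf-2 and N2 but were not called between the triple and double mutants, 428 showed the reverse, 120 moved the same way by different amounts, 108 moved in opposite directions and 112 were called in neither.

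The commonest order of means was a single one in each direction. Of the 897 positive genes, 580 (64.7%) had daf-2 and the double mutant below N2 and the triple mutant above both, an order found in 11.7% of tested genes. The mirror image, with daf-2 and the double mutant above N2 and the triple mutant below both, held for 410 of the 629 negative genes (65.2%) and for 14.5% of tested genes. The interaction's own definition favours these orders. In the squares of log2 CPM over the 12 libraries, daf-2 took 31.9%, spr loss 20.1%, the interaction 13.3% and the spread within genotypes 34.7%. With no difference between genotypes, daf-2, spr loss and the interaction would take 9.09% each and the spread within genotypes 72.7%.

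**Figure D2:**
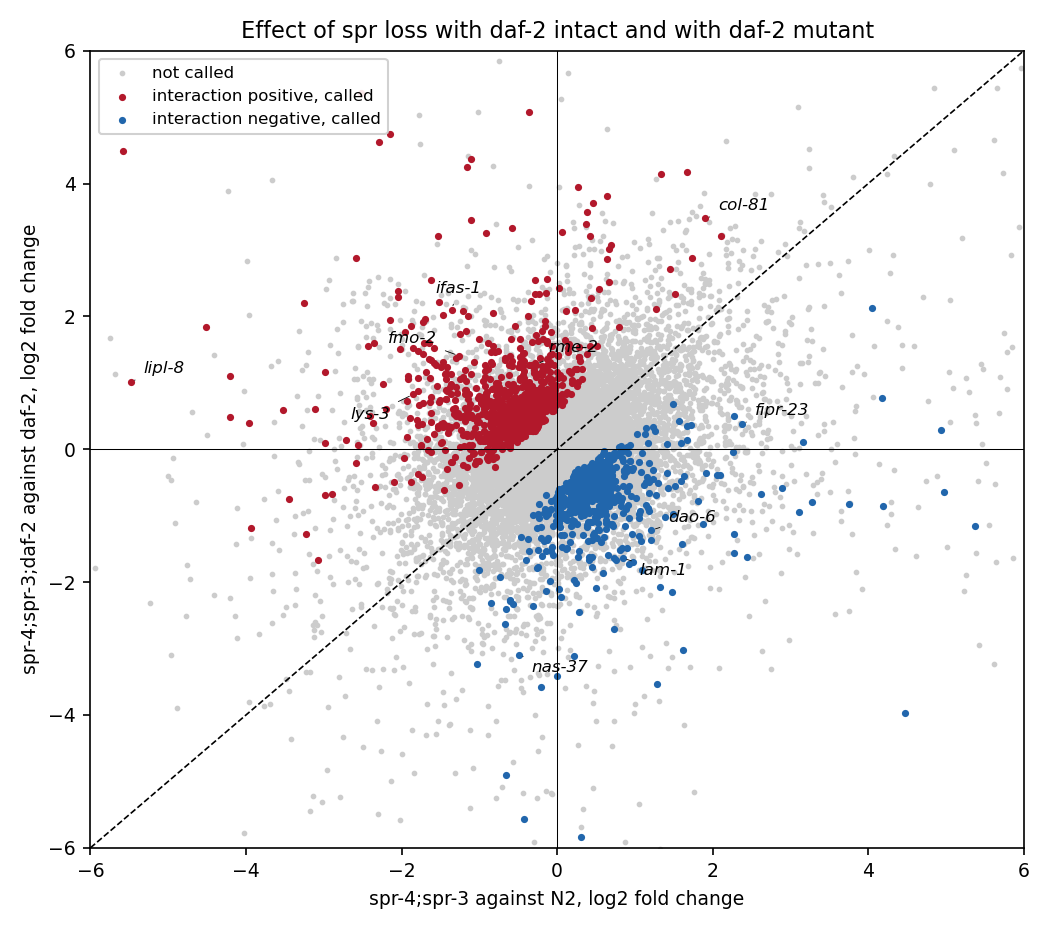
Each point is a gene: log2 fold change of the double mutant against N2 on the horizontal axis and of the triple mutant against daf-2 on the vertical axis, with equal effects on the dashed diagonal. The 897 genes called positive (red) lie above the diagonal and the 629 called negative (blue) below it; 79 genes beyond 6 on either axis are not drawn, 13 of them called.

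The targeted genes came first as a check of the genotypes, though point mutations need not alter the transcript. daf-2 RNA was at 35, 38.7 and 36.9 CPM in N2, 62.7, 68.1 and 72.6 CPM in daf-2, 58.2, 45.5 and 45.8 CPM in the double mutant and 66.3, 56.4 and 70.8 CPM in the triple mutant. It was lowest in N2, and no interaction was called (-0.51 ± 0.19 (adjusted p = 0.12)). spr-3 stood at 22, 24.4 and 21.2 CPM in N2, 23.5, 25.2 and 21.2 CPM in daf-2, 30.5, 28.5 and 26 CPM in the double mutant and 40.9, 37.9 and 42.5 CPM in the triple mutant, highest in the triple mutant, with an interaction of 0.47 ± 0.19 (adjusted p = 0.14). spr-4 stood at 46.1, 76.8 and 53.8 CPM in N2, 57.8, 44.5 and 49.2 CPM in daf-2, 39.4, 36.4 and 41.2 CPM in the double mutant and 36, 21.8 and 40.3 CPM in the triple mutant. Every library with spr-4 intact was above every library of the double and triple mutants, and values overlapped between N2 and daf-2 and between the double and triple mutants. Its interaction was -0.03 ± 0.30 (adjusted p = 0.97). Among 25 genes of the SPR, CoREST, presenilin and Notch list, 1 was called, the negative amx-1 (a monoamine oxidase family member related to the demethylase LSD1), at -1.18 ± 0.34, which held in 2 of 12 fits that leave out 1 library. The values for spr-1, spr-2, spr-5, sel-12 and hop-1 were -0.14, -0.15, -0.07, -0.37 and 0.10, none of them called.

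Within the insulin/IGF-1 pathway, 5 of 28 genes were called (17.9%, against 8.32% over all genes), all negative, and the list median was -0.24. ist-1, the worm's insulin receptor substrate homolog (chromosome X from 7126648 to 7139666 in WBcel235), was at 5.48, 5.44 and 8.2 CPM in N2, 16.46, 15 and 11.6 CPM in daf-2, 11, 7.26 and 9.05 CPM in the double mutant and 5.61, 4.15 and 7.2 CPM in the triple mutant. All daf-2 libraries were above every library of the other genotypes. The triple mutant was lower than the product by 3.61-fold (95% interval 2.2 to 5.91), an interaction of -1.85 ± 0.36 (adjusted p = 0.0063). akt-2, an AKT kinase that phosphorylates DAF-16 (chromosome X from 14147700 to 14152070), was at 24.8, 27.4 and 24.2 CPM in N2, 42.6, 49.9 and 52.5 CPM in daf-2, 31.6, 32.2 and 36.6 CPM in the double mutant and 31.6, 32.6 and 30.2 CPM in the triple mutant. Again the daf-2 libraries did not overlap the rest, and the triple mutant, with a product of 63.5 CPM, overlapped the double mutant (-1.01 ± 0.18 (adjusted p = 0.0043)). pdk-1, the kinase upstream of AKT, had -1.04 ± 0.23 (adjusted p = 0.013), with means of 35.5, 35.2, 50.04 and 24.2 CPM in N2, daf-2, the double and the triple mutant; its exons overlap those of F21E9.2. akt-1 (-0.61 ± 0.18, exons overlapping rop-1) and pqm-1 (-0.85 ± 0.24), a zinc-finger factor that works opposite DAF-16, were also called, in 2 and 4 of 12 fits with 1 library left out. daf-16 itself was not called (-0.35 ± 0.18 (adjusted p = 0.25)).

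Of 35 insulin-like peptide genes, the ligands of such receptors, 3 were positive and 1 negative, with a median of 0.27. The called share was 11.4%, against 8.32% over all genes. The positive ones, ins-3, ins-4 and ins-5, are neighbours on chromosome II between 5990099 and 5999023. ins-5 was at 12.27, 8.33 and 12.9 CPM in N2, 2.96, 1.69 and 3.03 CPM in daf-2, 6.36, 13.6 and 6.44 CPM in the double mutant and 13, 11.8 and 12.5 CPM in the triple mutant. daf-2 was lowest, below every library of the other genotypes. Replicates 1 and 3 of the double mutant were also below every N2 and triple mutant library, and its replicate 2 was the highest value of all. The triple mutant exceeded the product by 5.97-fold (95% interval 3.34 to 10.7), with an interaction of 2.58 ± 0.43 (adjusted p = 0.0026). ins-3 (2.13 ± 0.37 (adjusted p = 0.0031)) and ins-4 (2.19 ± 0.41 (adjusted p = 0.005)) also had their lowest mean in daf-2, with the highest in N2, whereas for ins-5 the triple mutant mean was highest. The negative one was ins-23, at 11.9, 8.36 and 12.9 CPM in N2, 55.6, 35.8 and 41.7 CPM in daf-2, 17.7, 12.5 and 11.8 CPM in the double mutant and 22.3, 27 and 19.6 CPM in the triple mutant. It was highest in daf-2 without overlap, and its interaction of -1.29 ± 0.30 (adjusted p = 0.017) was lost without daf-2 replicate 1.

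DAF-16 target lists were divided. Of 31 class I genes, those raised when DAF-16 is active, 6 were negative and 2 positive (25.8% called, against 8.32% over all genes). The median was -0.49. dao-6, named for its overexpression in dauer larvae and aging adults, was at 40.3, 29.4 and 60.8 CPM in N2, 1329, 889.8 and 1589 CPM in daf-2, 109, 131 and 62.8 CPM in the double mutant and 518, 600.5 and 519.9 CPM in the triple mutant. The order was the same in every library: N2 lowest, then the double mutant, the triple mutant and daf-2, which stood without overlap at the top. Spr loss raised dao-6 where daf-2 was intact (log2 1.21) and lowered it where daf-2 was mutant (-1.22), and the interaction was -2.43 ± 0.41 (adjusted p = 0.0033). lipl-4, a lysosomal lipase whose overexpression extends lifespan, was at 20.4, 11.8 and 15.8 CPM in N2, 96.8, 103 and 102 CPM in daf-2, 18.5, 16.484 and 14.4 CPM in the double mutant and 41.3, 41.4 and 51.3 CPM in the triple mutant. daf-2 stood above the triple mutant in every library, and N2 and the double mutant overlapped below them, giving -1.21 ± 0.24 (adjusted p = 0.0075). The long noncoding RNA tts-1 (-1.09 ± 0.23 (adjusted p = 0.0099)) and hsp-12.6 (-1.39 ± 0.33 (adjusted p = 0.016), lost without daf-2 replicate 3) had negative values as well.

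Of 18 class II genes, those lowered when DAF-16 is active, 3 were called (16.7%, against 8.32% over all genes). All were positive, and the list median was 0.71. They were ilys-2, an invertebrate-type lysozyme, dod-19 and the yolk gene vit-2. ilys-2 was at 100.3, 74.4 and 101 CPM in N2, 4.18, 4.75 and 6.24 CPM in daf-2, 12.1, 8.92 and 8.62 CPM in the double mutant and 1.39, 2.73 and 2.15 CPM in the triple mutant. Each mutation lowered it, with 4 levels that did not overlap, and the triple mutant stood 3.87-fold (95% interval 2.5 to 5.99) above the product (1.95 ± 0.32 (adjusted p = 0.0026)). dod-19 had means of 1698, 234, 665 and 205 CPM in N2, daf-2, the double and the triple mutant and an interaction of 1.16 ± 0.30 (adjusted p = 0.028), held in 5 of 12 fits with 1 library left out.

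Calls among oocyte genes were one-sided. Of 40 oocyte, eggshell and maternal RNA regulator genes, 9 were called (22.5%, against 8.32% over all genes), all positive. The median was 0.40 and 31 had a positive sign. rme-2, the yolk receptor of oocytes (chromosome IV from 5470026 to 5473174), was at 1230.0, 1454 and 1269 CPM in N2, 482, 516 and 457 CPM in daf-2, 983, 1191 and 1096 CPM in the double mutant and 1183, 1017 and 1323 CPM in the triple mutant. The daf-2 libraries were below all others. The double mutant lay below N2 without overlap, and the triple mutant overlapped both. The product of the single steps was 401 CPM, and the triple mutant exceeded it by 2.93-fold (95% interval 2.22 to 3.86), an interaction of 1.55 ± 0.20 (adjusted p = 0.00074). cpg-3, a chondroitin proteoglycan of the eggshell (chromosome I from 7244937 to 7246295, exons overlapping R06C7.6), was at 1538, 1399 and 1404 CPM in N2, 861, 688 and 721 CPM in daf-2, 1015, 1229 and 1258 CPM in the double mutant and 1268, 1483 and 1404 CPM in the triple mutant. daf-2 was lowest in every library and the triple mutant overlapped N2 (1.18 ± 0.20 (adjusted p = 0.0031)).

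nos-2, a Nanos homolog supplied by the mother to germ cells, was at 396, 359.6 and 383 CPM in N2, 173, 163 and 137 CPM in daf-2, 328, 388 and 349 CPM in the double mutant and 263, 288 and 318 CPM in the triple mutant, with exons overlapping him-14. daf-2 was again lowest without overlap, and the triple mutant was above it but below the double mutant (0.98 ± 0.19 (adjusted p = 0.0059)). cpg-1 (0.92 ± 0.22 (adjusted p = 0.019)) and mex-5 (0.82 ± 0.20 (adjusted p = 0.022)), which holds cytoplasmic fate regulators to one side of the embryo, each held in 9 of 12 fits with 1 library left out. gld-2, par-1, pie-1 and puf-5 were the other called members, at 0.85, 1.06, 0.84 and 0.77, held in 4, 6, 4 and 3 of 12. Outside the list, gna-2 (glucosamine phosphate acetyltransferase, needed for the eggshell) had 1.32 ± 0.18 (adjusted p = 0.00077) with means of 679.6, 242, 594 and 526 CPM in N2, daf-2, the double and the triple mutant. klp-15, a kinesin of the oocyte spindle, had 1.38 ± 0.19 (adjusted p = 0.00084), and lab-1, a protector of meiotic cohesin, had 1.40 ± 0.20 (adjusted p = 0.001), with exons overlapping T05F1.11. Summed over the 40 genes, the list stood at 38468 to 41576 CPM in N2, 21202 to 25662 in daf-2, 27411 to 34399 in the double mutant and 24299 to 26769 in the triple mutant, a sum carried by its most abundant members. Without double mutant replicate 2, 11 were positive and 1 negative, with a median of 0.34, against 13.2% called among all genes in that fit. Lists were recounted for that omission only, and its fit had the most calls.

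Yolk and yolk uptake genes had a median interaction of 1.55 over 11 genes, 3 called positive and 1 negative (36.4%, against 8.32% over all genes). The negative call was pqm-1, counted above in the insulin/IGF-1 list, and vit-2 was also counted in class II. vit-2, a vitellogenin made in the intestine, was at 14491, 21317 and 22043 CPM in N2, 8072, 12843 and 9434 CPM in daf-2, 3386, 11689 and 4899.6 CPM in the double mutant and 13057, 12093 and 12601 CPM in the triple mutant. The double mutant had the widest spread relative to its mean, its replicate 2 being more than its other replicates together. The interaction of 1.85 ± 0.50 (adjusted p = 0.036) held in 4 of 12 fits with 1 library left out; the exons of vit-2 overlap those of C42D8.9. The other vitellogenins were not called: vit-1, vit-3, vit-4, vit-5 and vit-6 had values of 1.88, 1.59, 1.54, 1.58 and 1.66, and vit-3, vit-4 and vit-5 are near-identical copies between which reads cannot be safely divided. rme-1, which recycles endocytosed receptors, was at 1044, 1306 and 1458 CPM in N2, 661, 695 and 534 CPM in daf-2, 759, 931 and 653 CPM in the double mutant and 924, 767 and 908 CPM in the triple mutant. N2 was above every other genotype, and the triple mutant overlapped the double mutant (1.16 ± 0.24 (adjusted p = 0.0089)). Without double mutant replicate 2, 8 of the 11 genes were positive, 1 was negative and the median was 2.29, against 13.2% called among all genes in that fit.

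**Figure D3:**
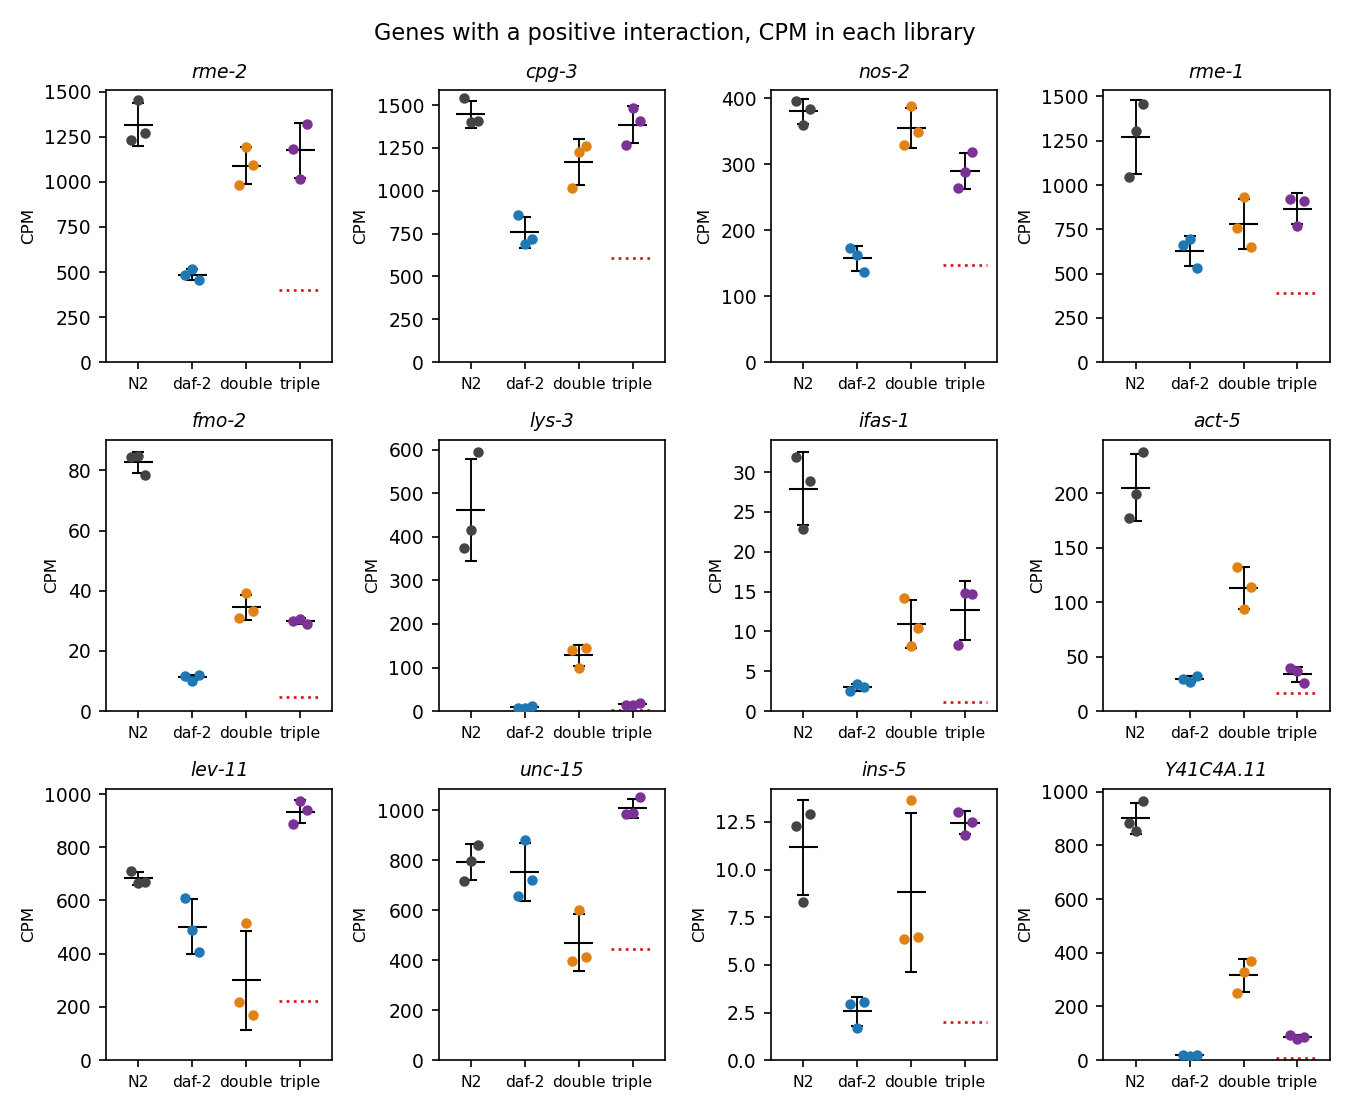
CPM in each library for 12 genes with a positive interaction, by genotype (double, spr-4;spr-3; triple, spr-4;spr-3;daf-2). Points are libraries, horizontal black lines means, bars the SD of 3 replicates and the dotted red line the product of the single steps, below the triple mutant in all panels; for rme-2 the product is 401 CPM and the triple mean 1174 CPM.

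Among 50 histone genes tested, 7 were positive and 2 negative (18% called, against 8.32% over all genes), with a median of 0.39. hil-4, a linker histone H1, was at 966, 781 and 783 CPM in N2, 327, 305 and 321 CPM in daf-2, 510.2, 731 and 501 CPM in the double mutant and 536, 565 and 537 CPM in the triple mutant. N2 was highest and daf-2 lowest without overlap, and spr loss lowered it where daf-2 was intact (log2 -0.54) and raised it where daf-2 was mutant (0.78), with an interaction of 1.32 ± 0.22 (adjusted p = 0.0027). hil-5 had 1.301 ± 0.23 (adjusted p = 0.0037). hil-1, another linker histone, did the opposite, at 24, 23.3 and 20.5 CPM in N2, 97.9, 97.1 and 121 CPM in daf-2, 57.3, 35.1 and 35 CPM in the double mutant and 55.3, 64.1 and 56.8 CPM in the triple mutant. daf-2 was highest and N2 lowest, with the other genotypes between, and the interaction was -1.75 ± 0.25 (adjusted p = 0.001). his-41, an H2B gene, had 1.13 ± 0.26 (adjusted p = 0.014); core histone genes are near copies, and its exons overlap those of C50F4.6.

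Calls among immune and intestinal genes were mostly positive. Of 41 innate immunity genes, 7 were positive and 1 negative (19.5% called, against 8.32% over all genes), with a median of 0.62. fmo-2, a flavin monooxygenase induced by fasting, hypoxia and pathogens (chromosome IV from 10682524 to 10684367), had the smallest p of genes with a class name. It was at 84.4, 84.9 and 78.6 CPM in N2, 11.6, 10.1 and 11.9 CPM in daf-2, 31.1, 39.3 and 33.1 CPM in the double mutant and 29.98, 30.8 and 28.8 CPM in the triple mutant. N2 was far above the rest, daf-2 far below, and the double and triple mutants nearly met. Spr loss lowered fmo-2 by log2 -1.26 where daf-2 was intact and raised it by 1.41 where daf-2 was mutant; the triple mutant exceeded the product of 4.67 CPM by 6.36-fold (95% interval 4.94 to 8.19), an interaction of 2.67 ± 0.19 (adjusted p = 1e-06).

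lys-3, a lysozyme, was at 374, 415 and 594 CPM in N2, 7.43, 7.17 and 11.6 CPM in daf-2, 139, 99.7 and 144 CPM in the double mutant and 13.6, 13.6 and 19.8 CPM in the triple mutant. All 4 genotypes were separate, with daf-2 lowest, and the interaction was 2.68 ± 0.32 (adjusted p = 0.00037). zip-10, a bZIP factor (exons overlapping skp-1), had 1.04 ± 0.23 (adjusted p = 0.011), tir-1, the TIR adaptor above the p38 cascade, 1.03 ± 0.24 (adjusted p = 0.014), and irg-2, an infection response gene, 0.88 ± 0.20 (adjusted p = 0.015). The negative member was irg-5, at -1.67 ± 0.34 (adjusted p = 0.0084), with means of 10.9, 14.3, 7.15 and 2.99 CPM in N2, daf-2, the double and the triple mutant. C-type lectins, sugar-binding proteins many of which respond to infection, had 9 calls of 158, all positive and near the background share, and a median of 0.49. clec-5 (1.41 ± 0.25 (adjusted p = 0.0035)) and clec-218 (2.21 ± 0.33 (adjusted p = 0.0015)) were lowest in the double mutant, and clec-87, clec-88 and clec-91 (1.21, 0.99 and 1.28) were lowest in daf-2, with exons overlapping iars-2, ctsa-4.1 and ZK858.8 in that order.

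Of 28 intestine markers, 4 were positive and 1 negative (17.9% called, against 8.32% over all genes), with a median of 0.47. act-5, the microvillar actin, was at 177, 199 and 238 CPM in N2, 29.7, 27.1 and 32.4 CPM in daf-2, 132, 93.9 and 114 CPM in the double mutant and 39.2, 36.4 and 25.8 CPM in the triple mutant. N2 was highest, the double mutant next, and the lines with daf-2 mutant overlapped at the bottom (1.03 ± 0.24 (adjusted p = 0.016)). ifb-2, an intermediate filament of the intestinal terminal web, had 1.21 ± 0.29 (adjusted p = 0.018) with means of 37, 5.42, 26.8 and 9.08 CPM in the order N2, daf-2, double, triple. Summed intestine markers were 7098 to 9554 CPM in N2, 3298 to 4118 in daf-2, 2661 to 5346 in the double and 2104 to 3158 in the triple mutant, and their part in the immune and yolk results, whose products are also made largely in the intestine, was not tested. ges-1, the gut esterase, was negative at -1.45 ± 0.37 (adjusted p = 0.023), in 6 of 12 fits with 1 library left out.

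Of 44 muscle sarcomere genes, 5 were positive and 1 negative (13.6% called, against 8.32% over all genes), with a median of 0.14. lev-11, tropomyosin, was at 712, 667 and 669 CPM in N2, 609, 490.0 and 405 CPM in daf-2, 219, 514 and 168 CPM in the double mutant and 887, 974 and 941 CPM in the triple mutant. The triple mutant was above every other library, and within the double mutant replicate 2 reached the range of daf-2 while the others were lower. The interaction was 2.08 ± 0.43 (adjusted p = 0.01). unc-15, paramyosin, was at 717, 797 and 861 CPM in N2, 657, 881 and 721 CPM in daf-2, 395, 601 and 412 CPM in the double mutant and 983, 988 and 1052 CPM in the triple mutant. Its triple mutant libraries were highest and its double mutant libraries lowest, without overlap (1.18 ± 0.24 (adjusted p = 0.008)). act-4, an actin gene with near-identical paralogs and exons overlapping M03F4.6, had 1.59 ± 0.32 (adjusted p = 0.0076). unc-97, a LIM protein of muscle attachments, was negative at -1.202 ± 0.20 (adjusted p = 0.0028). Summed sarcomere genes stood at 11740 to 12821 CPM in N2, 10387 to 11739 in daf-2, 6529 to 9917 in the double mutant and 13499 to 14476 in the triple mutant. Without double mutant replicate 2 there were 9 positive and 3 negative calls, against 13.2% called among all genes in that fit.

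Basement membrane genes were called on the negative side, 4 of 24 (16.7%, against 8.32% over all genes), with a median of -0.44. lam-1, laminin beta (chromosome IV from 5173332 to 5183746), was at 32.2, 27.3 and 19.7 CPM in N2, 84.5, 107 and 67.2 CPM in daf-2, 40.9, 56.2 and 45.2 CPM in the double mutant and 41.3, 22.4 and 19.3 CPM in the triple mutant. The daf-2 libraries were above all others, and the triple mutant overlapped N2. It stood below the product of 155 CPM by 5.6-fold (95% interval 3.37 to 9.32), an interaction of -2.49 ± 0.37 (adjusted p = 0.0019). epi-1, a laminin alpha chain (chromosome IV from 10666823 to 10679291, exons overlapping K08C7.4), was at 44.9, 60.9 and 40.4 CPM in N2, 105, 142 and 102 CPM in daf-2, 111, 104 and 88.3 CPM in the double mutant and 75.9, 36.1 and 57.5 CPM in the triple mutant. daf-2 and the double mutant overlapped above N2 and the triple mutant, which overlapped each other, and the interaction was -2.09 ± 0.32 (adjusted p = 0.0019). nid-1, nidogen, and pxn-2, a peroxidasin, had -0.85 ± 0.23 and -1.51 ± 0.40, each called in 4 of 12 fits with 1 library left out. Without double mutant replicate 2, the list had 4 positive and 6 negative calls, against 13.2% called among all genes in that fit. Of 41 body shape and moulting genes, 3 were called (7.32%, below the 8.32% of all genes), all negative. Those kept in all 12 fits were lrp-1, a megalin homolog needed for moulting, and nas-37, an astacin protease of moulting. Their values were -1.54 ± 0.31 (adjusted p = 0.0082) and -2.61 ± 0.44 (adjusted p = 0.0029). The exons of nas-37 overlap those of C17G1.5.

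**Figure D4:**
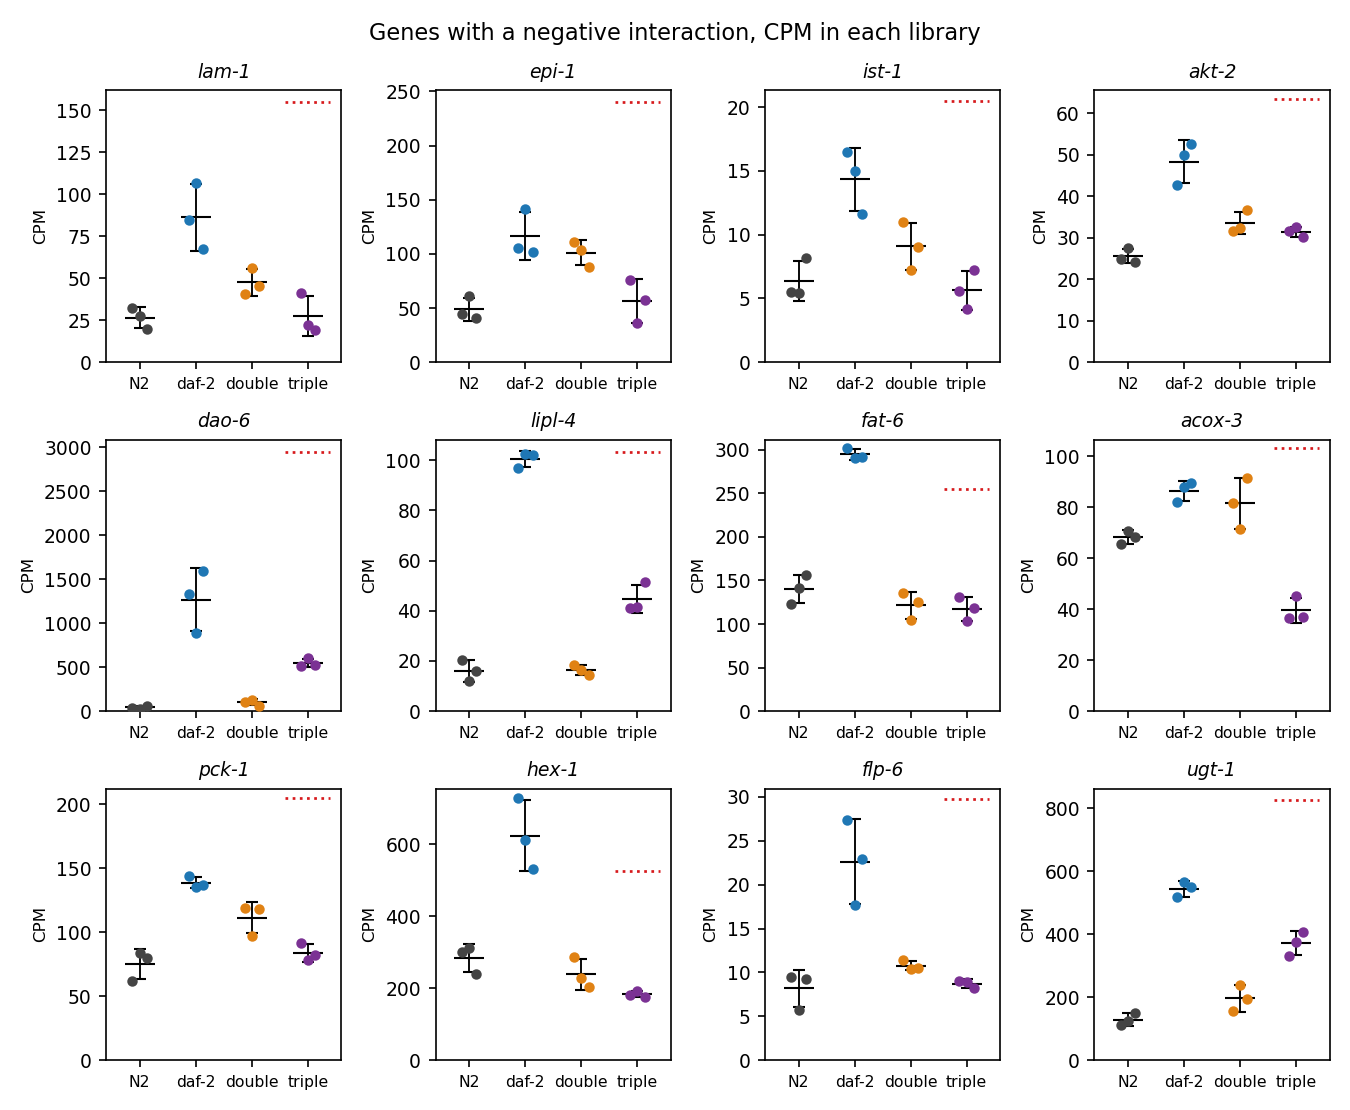
CPM in each library for 12 genes with a negative interaction, by genotype (double, spr-4;spr-3; triple, spr-4;spr-3;daf-2). Points are libraries, horizontal black lines means, bars the SD of 3 replicates and the dotted red line the product of the single steps, above the triple mutant in all panels; for lam-1 the product is 155 CPM and the triple mean 27.7 CPM.

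Lipid, sugar and one-carbon lists held more negative than positive calls. Of 100 genes of fatty acid synthesis, storage and oxidation, 13 were negative and 4 positive, with a median of -0.27. The called share was 17%, against 8.32% over all genes (4.89% positive and 3.43% negative). fat-6, a stearoyl-CoA desaturase (chromosome IV from 11913692 to 11915687), was at 123, 141 and 156 CPM in N2, 302, 291 and 292 CPM in daf-2, 135, 104 and 125 CPM in the double mutant and 131, 103 and 118 CPM in the triple mutant. daf-2 was above the others, which overlapped one another. The interaction was -1.12 ± 0.20 (adjusted p = 0.0033). acox-3, a peroxisomal acyl-CoA oxidase, was at 65.5, 70.8 and 68.4 CPM in N2, 81.9, 87.7 and 89.4 CPM in daf-2, 81.7, 71.5 and 91.3 CPM in the double mutant and 36.7, 45 and 36.8 CPM in the triple mutant. Here the triple mutant alone stood apart, below every other library (-1.38 ± 0.18 (adjusted p = 0.00074)). elo-6, a fatty acid elongase, had -1.29 ± 0.21 (adjusted p = 0.0026), hacd-1, a hydroxyacyl-CoA dehydrogenase, -1.74 ± 0.34 (adjusted p = 0.0058), and acdh-3, an acyl-CoA dehydrogenase, -1.03 ± 0.20 (adjusted p = 0.0057), with exons overlapping K06A5.3 and knl-2.

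lipl-8, a lipase gene, had the largest positive value of a gene with a class name and 5 CPM or more in a genotype. It was at 11.9, 14.4 and 16.39 CPM in N2, 0.75, 1.77 and 0.634 CPM in daf-2, 0.489, 0.484 and 0 CPM in the double mutant and 1.47, 1.5 and 2.85 CPM in the triple mutant. N2 was far above the rest, and the double mutant was near 0, so that the value of 6.50 ± 0.87 (adjusted p = 0.00097) rests on few counts in that genotype. acs-13 and acs-16, acyl-CoA synthetases, were positive at 1.01 and 0.96.

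In sugar, glyoxylate and trehalose metabolism, 6 of 35 genes were negative and 3 positive (25.7% called, against 8.32% over all genes). The median was -0.38. pck-1, a phosphoenolpyruvate carboxykinase, was at 62, 83.7 and 80.2 CPM in N2, 144, 136 and 137 CPM in daf-2, 119, 97.4 and 118 CPM in the double mutant and 91.8, 78.2 and 82.2 CPM in the triple mutant. Spr loss raised pck-1 where daf-2 was intact (log2 0.56) and lowered it where daf-2 was mutant (-0.72), an interaction of -1.29 ± 0.19 (adjusted p = 0.0015). tpi-1, triosephosphate isomerase, and tps-2, a trehalose phosphate synthase with exons overlapping arl-3, had -1.16 ± 0.21 (adjusted p = 0.0036) and -1.36 ± 0.30 (adjusted p = 0.011). pygl-1, glycogen phosphorylase, was positive, at 866, 1028 and 1020.2 CPM in N2, 622, 653 and 531 CPM in daf-2, 860.2, 1125 and 762 CPM in the double mutant and 1492, 1332 and 1652 CPM in the triple mutant. Its triple mutant libraries were above all others and its daf-2 libraries below all others (1.39 ± 0.23 (adjusted p = 0.0026)). icl-1, the glyoxylate cycle enzyme, was positive at 1.33 ± 0.32 (adjusted p = 0.018), which was lost without daf-2 replicate 3 and without double mutant replicate 3.

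Of 29 propionate and one-carbon genes, 12 were called, 8 negative and 4 positive, with a median of -0.44. The called share of 41.4%, against 8.32% over all genes, was the largest of any list. sams-1, S-adenosylmethionine synthetase, was at 321, 358 and 421 CPM in N2, 263, 206 and 190.3 CPM in daf-2, 152, 283 and 130.0 CPM in the double mutant and 303, 337 and 315 CPM in the triple mutant. The double mutant was lowest in replicates 1 and 3, while its replicate 2 lay above daf-2 and below N2 (1.50 ± 0.32 (adjusted p = 0.01)). cth-1, cystathionine gamma-lyase, had 1.36 ± 0.30 (adjusted p = 0.011), and hphd-1, which acts in the propionate shunt, 0.81 ± 0.17 (adjusted p = 0.01). Negative members were nhr-10, a nuclear receptor that switches on that shunt (-0.93 ± 0.20 (adjusted p = 0.01)), and mce-1, methylmalonyl-CoA epimerase (-0.92 ± 0.21 (adjusted p = 0.014), lost without daf-2 replicate 3). metr-1, methionine synthase, mtrr-1, its reductase, and pmt-1, a phosphoethanolamine methyltransferase, were at -0.88, -0.97 and -0.69, held in 9, 7 and 11 of 12 fits. Without double mutant replicate 2 the counts were the same, 8 negative and 4 positive, against 13.2% called among all genes in that fit.

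Of 65 UDP-glucuronosyltransferases, enzymes that conjugate lipophilic compounds, 7 were negative and 3 positive (15.4% called, against 8.32% over all genes). ugt-1 was at 112, 124 and 151 CPM in N2, 518, 566 and 549 CPM in daf-2, 155, 239.7 and 194 CPM in the double mutant and 331, 377 and 408 CPM in the triple mutant. The order was N2, double mutant, triple mutant, daf-2, without overlap, and the interaction was -1.15 ± 0.23 (adjusted p = 0.0071). ugt-63 was at 125, 161 and 225 CPM in N2, 122, 111 and 97.1 CPM in daf-2, 80.3, 101 and 102 CPM in the double mutant and 18.2, 26.2 and 21.9 CPM in the triple mutant, one of the few genes lowered by spr loss in both backgrounds and further with daf-2 mutant (-1.46 ± 0.27 (adjusted p = 0.0049)). Cytochromes P450 were called for 2 positive and 5 negative of 72 (9.72%, near the 8.32% of all genes). Among them were cyp-33C2 (-1.53 ± 0.33 (adjusted p = 0.01)) and cyp-33E1 (-1.03 ± 0.21 (adjusted p = 0.008)). hex-1, a hexosaminidase that fell outside the lists, was at 299.7, 313 and 240.4 CPM in N2, 727, 612 and 532 CPM in daf-2, 286, 229 and 202 CPM in the double mutant and 182, 192 and 176 CPM in the triple mutant, with daf-2 highest and the triple mutant lowest (-1.52 ± 0.23 (adjusted p = 0.0015)).

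For organelles, the nuclear respiratory chain had 5 calls among 41 genes (12.2%) and lysosome and V-ATPase genes 5 among 47 (10.6%). All of these calls were negative, and the share over all genes tested was 8.32%. Kept in all fits were gas-1, a complex I subunit (-1.03 ± 0.21 (adjusted p = 0.0085), exons overlapping K09A9.6), and lipl-4. Autophagy had 4 negative and 1 positive of 30, led by epg-2, a factor of autophagic degradation in embryos, at 15.7, 19.6 and 13.1 CPM in N2, 36.5, 36.1 and 29.3 CPM in daf-2, 31.6, 25.7 and 22.7 CPM in the double mutant and 13.8, 19.7 and 11.9 CPM in the triple mutant. daf-2 and the double mutant were above N2 and the triple mutant (-1.88 ± 0.29 (adjusted p = 0.0019)); its exons overlap those of tpxl-1. Of 14 mitochondrial stress genes, 3 were negative, among them hsp-60, the mitochondrial chaperonin (-0.84 ± 0.20), and timm-23, an import channel subunit (-1.05 ± 0.25), lost without double mutant replicate 3 and without daf-2 replicate 3, respectively. The 16 tested genes of mitochondrial DNA had a median of -0.32 and 0 calls by edgeR, with 5 at an unadjusted p under 0.05, 2 called by DESeq2 and 1 by limma-voom. Over all 18342 genes tested, 4295 were at an unadjusted p under 0.05, 2329 were called by DESeq2 and 2209 by limma-voom.

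Neuronal lists, of interest because the spr genes are compared with REST, ran from 0 calls to 23.5%. Of 17 genes of neuropeptide processing and dense core vesicles, 3 were negative and 1 positive (median 0.08), none held in all 12 fits with 1 library left out. The negative ones were kpc-1 (-0.996 ± 0.26 (adjusted p = 0.029), exons overlapping scrm-4) and egl-3 (-0.75 ± 0.21 (adjusted p = 0.034)), proprotein convertases, and pamn-1 (-0.84 ± 0.23 (adjusted p = 0.031)), an enzyme of peptide amidation. Of 24 pan-neuronal markers, which include egl-3, 1 was positive and 3 negative (16.7%, median -0.13), and unc-14 (0.93 ± 0.22 (adjusted p = 0.015)) alone held in all 12 fits. Of 31 synaptic vesicle release genes, 3 were called (9.68%, against 8.32% over all genes), all negative (median -0.28). None of those 3 held in all 12 fits. Of 82 voltage-gated and potassium channel genes, 3 were positive and 3 negative (7.32% called, below the 8.32% of all genes). twk-31, a 2-pore potassium channel gene, was at 157, 169 and 152 CPM in N2, 58.6, 58.7 and 54.2 CPM in daf-2, 86, 118 and 84.2 CPM in the double mutant and 107, 97.8 and 109 CPM in the triple mutant. daf-2 was lowest and N2 highest, and spr loss moved it down where daf-2 was intact (log2 -0.73) and up where daf-2 was mutant (0.87), an interaction of 1.60 ± 0.19 (adjusted p = 0.00038). cca-1, the T-type calcium channel, was negative at -1.31 ± 0.30 (adjusted p = 0.013).

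Acetylcholine signalling had 0 calls by edgeR among 52 genes, with 8 at an unadjusted p under 0.05, 2 called by DESeq2 and 1 by limma-voom. Monoamine signalling had 0 by edgeR among 32 genes, with 9 at an unadjusted p under 0.05 and 2 called by each other tool, and its median of -0.55 was the lowest of all lists. Among all 18342 genes tested, 4295 were at an unadjusted p under 0.05, 2329 were called by DESeq2 and 2209 by limma-voom. Of 72 neuropeptide-like genes, 5 were called (6.94%, below the 8.32% of all genes), all positive. Among them were nlp-71 (2.32 ± 0.45 (adjusted p = 0.0057)) and snet-1, a peptide that inhibits olfactory memory (1.42 ± 0.26 (adjusted p = 0.0045)). flp-6, an FMRFamide-like peptide gene, was at 9.53, 5.77 and 9.25 CPM in N2, 27.4, 17.6 and 22.9 CPM in daf-2, 11.4, 10.4 and 10.5 CPM in the double mutant and 9.06, 8.93 and 8.18 CPM in the triple mutant. daf-2 stood above the other genotypes without overlap, an interaction of -1.78 ± 0.30 (adjusted p = 0.0029). The gene was 1 of 2 negative calls among 30 genes of that family (6.67% called). glt-3, a glutamate transporter, was positive at 1.24 ± 0.23 (adjusted p = 0.0051) with means of 89, 105, 48.8 and 136 CPM in N2, daf-2, the double and the triple mutant. Summed pan-neuronal markers were 1645 to 1759 CPM in N2, 1448 to 1563 in daf-2, 1512 to 1583 in the double and 1552 to 1670 in the triple mutant. Chemoreceptors had 7 calls among 545 genes (1.28%, below the 8.32% of all genes).

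Cilia genes had 5 positive and 2 negative of 53 (13.2% called, against 8.32% over all genes). The largest of those held in all fits was dyf-7, an anchor of sensory dendrites, at 26.1, 22.7 and 23.3 CPM in N2, 13.9, 9.26 and 9.33 CPM in daf-2, 6.26, 14 and 5.46 CPM in the double mutant and 27.4, 25.6 and 23.8 CPM in the triple mutant. daf-2 and the double mutant overlapped below N2 and the triple mutant, which overlapped each other (2.73 ± 0.39 (adjusted p = 0.0012)). Of 43 G proteins and regulators, 5 were called (11.6%, against 8.32% over all genes), all positive, where 58.8% of all calls were positive. Of these, rgs-10 alone held in all 12 fits (1.09 ± 0.19 (adjusted p = 0.0032)). Genes of histone modification and chromatin silencing had 3 positive and 6 negative calls among 58 (15.5%), with set-30, a SET-domain gene, held in all (-1.19 ± 0.25 (adjusted p = 0.01)). sex-1, the nuclear receptor that counts X chromosomes, was at 19.6, 21.3 and 16.08 CPM in N2, 35.9, 35.6 and 29.4 CPM in daf-2, 30.4, 32.2 and 22 CPM in the double mutant and 17.4, 18.5 and 17.5 CPM in the triple mutant, with N2 and the triple mutant below daf-2 and the double mutant (-1.48 ± 0.24 (adjusted p = 0.0022)).

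Cuticle collagens named col had 8 positive and 1 negative of 123 genes (7.32% called, near the 8.32% of all genes). col-81 was at 10.3, 7.44 and 6.22 CPM in N2, 8.68, 5.96 and 4.73 CPM in daf-2, 25.9, 39.9 and 23.9 CPM in the double mutant and 66.1, 89.5 and 59.3 CPM in the triple mutant. Spr loss raised it in both backgrounds, by log2 1.91 with daf-2 intact and 3.48 with daf-2 mutant, so that the triple mutant was highest (1.57 ± 0.36 (adjusted p = 0.015)). col-71 (1.26 ± 0.28 (adjusted p = 0.011)) followed the same order. col-50, negative at -1.73 ± 0.38 (adjusted p = 0.011), was raised in daf-2 and less so in the triple mutant, with means of 3.85, 105, 5.36 and 43.8 CPM in N2, daf-2, the double and the triple mutant.

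The smallest p of all tested genes belonged to Y41C4A.11 (chromosome III from 11719860 to 11721077), a gene with a sequence name only, at 885, 853 and 964 CPM in N2, 20.2, 17 and 18.6 CPM in daf-2, 250.1, 328 and 368 CPM in the double mutant and 93.2, 79 and 87.5 CPM in the triple mutant. The genotypes were 4 separate levels with N2 highest and daf-2 lowest. Spr loss lowered it by log2 -1.51 where daf-2 was intact and raised it by 2.22 where daf-2 was mutant, and the interaction was 3.73 ± 0.22 (adjusted p = 1.2e-07). ifas-1 was at 31.9, 22.9 and 28.9 CPM in N2, 2.5, 3.38 and 3.05 CPM in daf-2, 14.2, 8.17 and 10.4 CPM in the double mutant and 8.37, 14.9 and 14.7 CPM in the triple mutant, with daf-2 below all others and N2 above them (3.46 ± 0.36 (adjusted p = 0.00014)). calu-1, calumenin, a calcium-binding protein of the endoplasmic reticulum, was at 169.7, 172 and 151 CPM in N2, 196, 193 and 192 CPM in daf-2, 168, 169 and 187 CPM in the double mutant and 100.1, 96.8 and 87 CPM in the triple mutant. Only the triple mutant was low (-1.12 ± 0.17 (adjusted p = 0.0014)). odc-1, ornithine decarboxylase, was at 74.8, 80.9 and 63.6 CPM in N2, 142, 166 and 159 CPM in daf-2, 94.3, 84 and 91.4 CPM in the double mutant and 73.8, 99 and 75.2 CPM in the triple mutant, where only daf-2 was high (-1.21 ± 0.20 (adjusted p = 0.0026)).

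By chromosome, called shares ran from 8.06% on I to 9.45% on X, where 115 were positive and 124 negative, the only chromosome with more negative than positive calls. There were 11 runs of at least 3 neighbouring tested genes called with the same sign, described without a test. Besides the insulin genes they held T05A8.1 and T05A8.2 on chromosome II, with values of 3.14 and 3.102, and a negative run of T20D4.12, T20D4.11 and T20D4.10 on chromosome V at -2.57, -2.41 and -1.72, named after their values were seen.

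**Figure D5:**
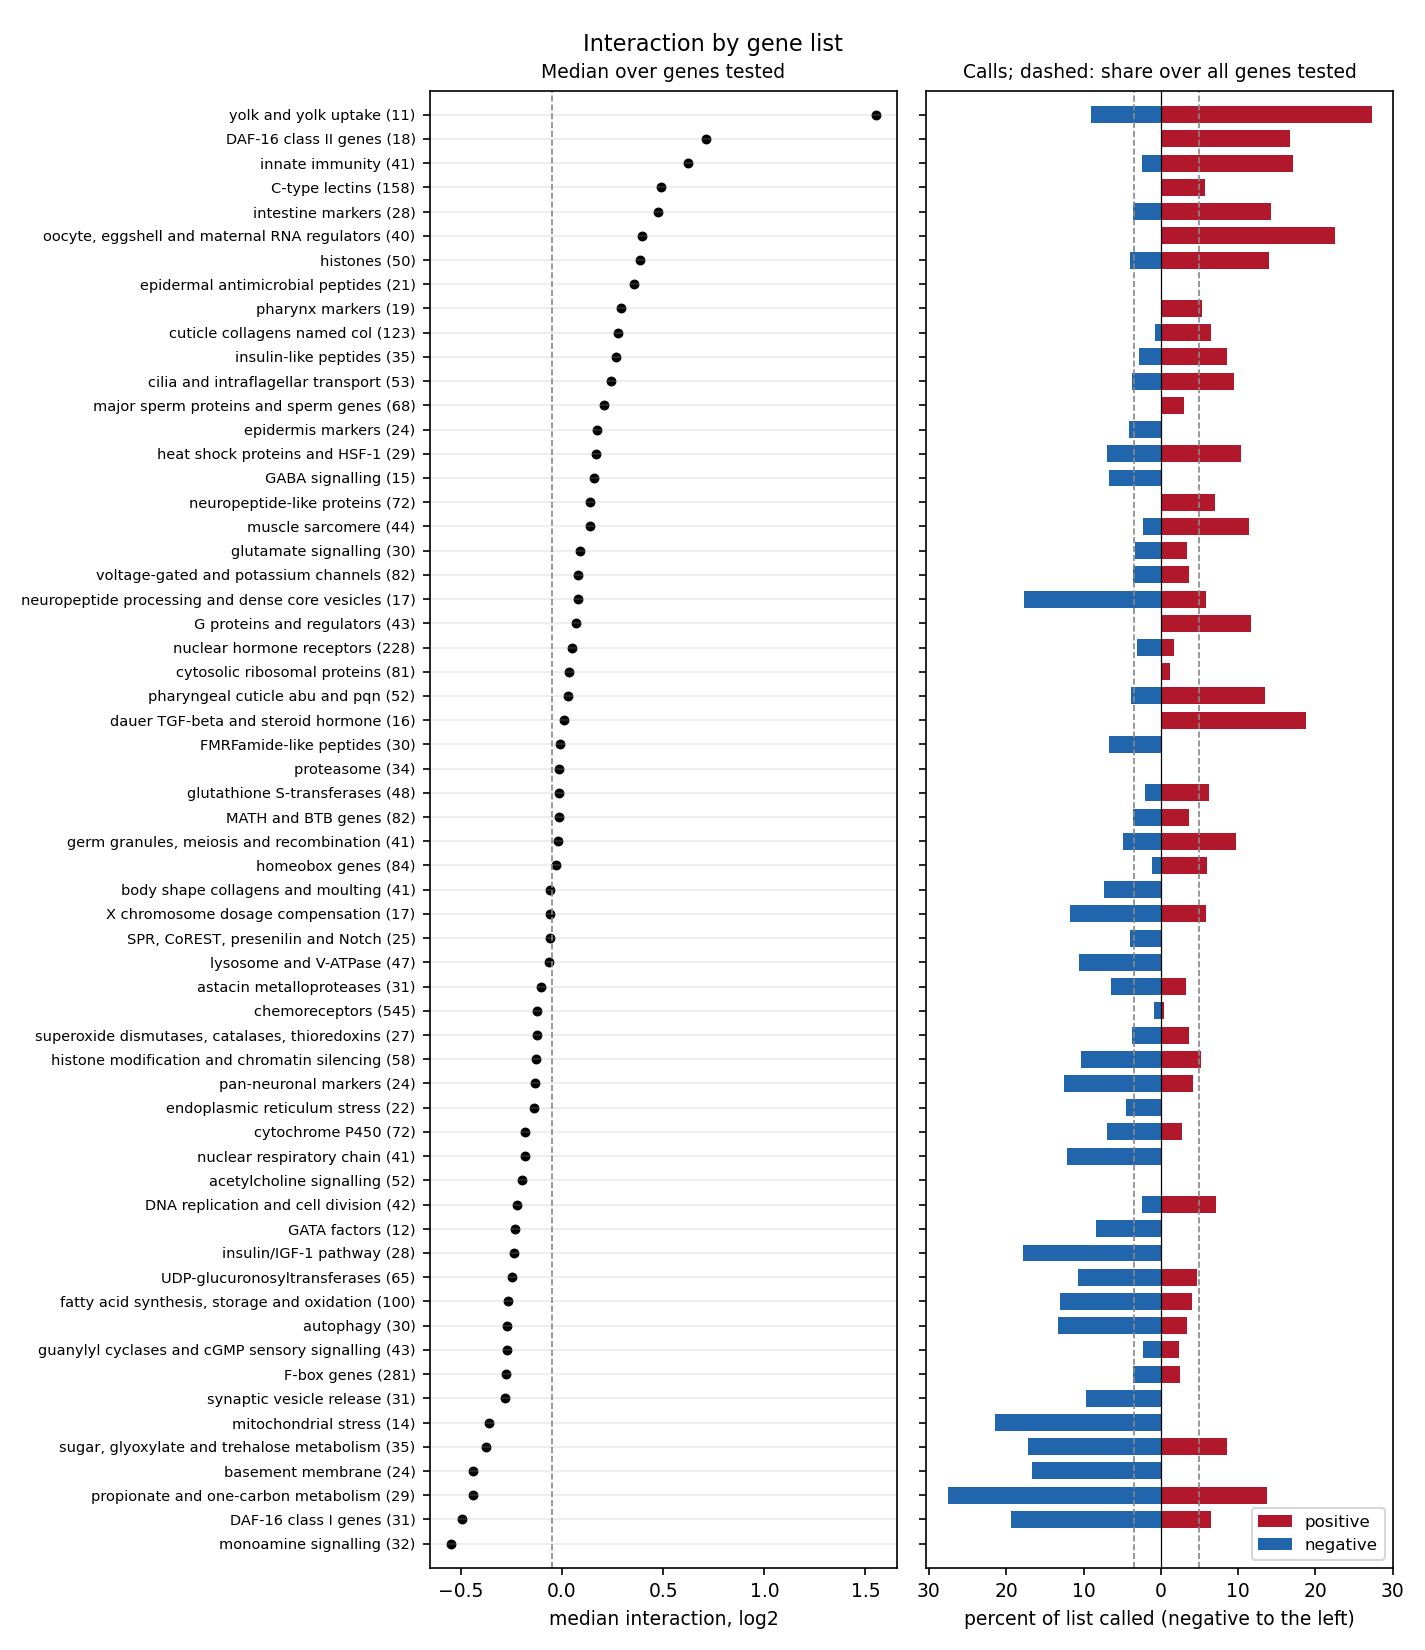
For each gene list, with the number of genes tested in brackets: left, the median interaction in log2, with the dashed line at the -0.05 of all tested genes; right, the percent of the list called positive (red) and negative (blue, to the left), with dashed lines at the 4.89% and 3.43% of all tested genes. Yolk, DAF-16 class II and immunity lists lie at the top of the medians and class I and monoamine lists at the bottom.

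Of the remaining lists, dauer TGF-beta and steroid hormone genes had 3 calls of 16 (18.8%, against 8.32% over all genes). All were positive, and the list median was 0.0077. The called genes were din-1, a corepressor partner of the receptor DAF-12 (1.05 ± 0.22 (adjusted p = 0.0081)), daf-7, a TGF-beta ligand (1.24 ± 0.33 (adjusted p = 0.029)), and daf-36, an oxygenase of dafachronic acid synthesis (0.84 ± 0.24 (adjusted p = 0.042), exons overlapping C12D8.20), of which din-1 held in all 12 fits with 1 library left out. Pharyngeal cuticle abu and pqn genes had 7 positive and 2 negative of 52 (17.3%), and heat shock genes 3 positive and 2 negative of 29 (17.2%). Germ granule, meiosis and recombination genes had 4 positive and 2 negative of 41 (14.6%), with glh-2, a germline helicase (1.33 ± 0.24 (adjusted p = 0.0035)), and syp-2, a synaptonemal complex protein (0.91 ± 0.20 (adjusted p = 0.01)), held in all 12 fits. X chromosome dosage compensation genes, which include sex-1, had 1 positive and 2 negative of 17 (17.6%).

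Other lists were nearer to or below the 8.32% of all genes. Proteasome genes had 0 calls by edgeR among 34, with 4 at an unadjusted p under 0.05 and 2 called by each of DESeq2 and limma-voom. Epidermal antimicrobial peptides had 0 by edgeR among 21, with 4 at an unadjusted p under 0.05, 2 by DESeq2 and 0 by limma-voom. The same counts over all 18342 genes tested were 4295 at an unadjusted p under 0.05, 2329 by DESeq2 and 2209 by limma-voom. Ribosomal proteins had 1 call of 81, nuclear hormone receptors 4 positive and 7 negative of 228, and F-box genes 7 positive and 10 negative of 281. Sperm genes had 2 positive of 68. DNA replication and cell division genes had 3 positive and 1 negative of 42, homeobox genes 5 positive and 1 negative of 84, and glutathione S-transferases 3 positive and 1 negative of 48. Pharynx markers had 1 of 19 and epidermis markers 1 of 24 called.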

How the data were processed

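The deposited table holds raw counts per gene, whole numbers without normalization, for 12 libraries (12 columns of the series, 0 of other samples). Per the submitters' processing notes, STAR and featureCounts 1.5.1 were used with WBcel235; STAR's version, the annotation release and the strand setting were not given in the sources used here. Per the labels' protocols, cDNA was made from 2 ng of RNA with a kit that marks neither strand nor molecules. Reads from overlapping exons therefore cannot be assigned to a gene by strand. Amplified copies of a molecule cannot be told from separate molecules.

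Counts were fitted with edgeR 4.0.16 (R 4.3.3): filterByExpr by genotype (minimum count 10, minimum total 15), TMM factors, a mean per genotype over all 12 libraries, robust quasi-likelihood F-tests with Benjamini-Hochberg adjustment over 18342 genes at 0.05. The common biological coefficient of variation was 0.291. Values after ± are SE, the log2 value divided by the square root of F, with a median of 0.40 for the interaction and 0.29 for the triple mutant against daf-2. CPM use the TMM factors. Products of single steps are daf-2 times double mutant over N2, from mean CPM. Positions and overlaps come from Ensembl release 115. In counts simulated for this contrast over 18342 genes, 0% of 1.5-fold, 16.4% of 2-fold and 62.1% of 4-fold interactions were recovered, with 2 false calls of 54. Far fewer genes carried an interaction there than were called in the data, so the adjusted p cut was stricter. These recoveries need not hold for the data. Replicates are called biological in the labels without saying what they share. p-values measure the spread between these samples.

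The gene lists, the naming rule and the tests were chosen with earlier results of these data known. Named genes are the targeted and related genes, the largest interactions with at least 5 CPM in a genotype that held in all 12 fits leaving out 1 library, up to 5 called members per list, and those of smallest p per class of spr effect. gld-2, par-1, pie-1, puf-5, irg-2, tir-1, hacd-1, acs-13, acs-16, metr-1, mtrr-1, pmt-1, vit-1, vit-3, vit-4, vit-5 and vit-6 were named after their values were seen. The twin genes named hsp-16.1 could not be assigned to the class I list, and the list of mitochondrial DNA genes had no match by symbol. Alternatives were DESeq2 1.42.0 and its size factors, upper-quartile factors, limma 3.58.1 voom with quality weights, other filters, a 1.5-fold threshold, a replicate block, the number ending the library names, a linear scale, and leaving out each library. A planned description of promoter motifs was not made.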

Additional observations from a re-analysis of the deposited data

Results flagged for a closer look

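The effect of spr loss differed by genotype, tested by the interaction itself, for 1526 genes, and for 148 of them spr loss was called in both backgrounds with opposite directions. Taken by smallest p within each sign, 16 genes of that kind had these interaction values on the log2 scale. Positive were Y41C4A.11 at 3.73, ifas-1 at 3.46, fmo-2 at 2.67, T23F11.6 at 2.48, T21B6.3 at 2.31, Y75B8A.39 at 2.26, T10C6.7 at 1.78 and T01E8.8 at 1.64, each lowered by spr loss where daf-2 was intact and raised where it was mutant. Negative were F40G12.5 at -2.59, Y6E2A.4 at -2.46, C35E7.5 at -1.83, hil-1 at -1.75, stdh-1 at -1.63, Y39A3CL.4 at -1.55, dur-1 at -1.52 and pck-1 at -1.29, each raised with daf-2 intact and lowered with daf-2 mutant. All 16 held in every fit that leaves out 1 library. The exons of T10C6.7 overlap those of T10C6.6, those of Y6E2A.4 those of Y6E2A.5, and those of dur-1 those of bed-3.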

How the results depend on the processing

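The share of positive calls moved by scaling from 58.8% to 945 positive and 557 negative genes with DESeq2's size factors and 905 and 627 with upper-quartile factors, and no setting shifted the median of all genes by over 0.1. DESeq2 called 2329 interaction genes (1353 positive, 976 negative), of which 1499 were among the 1526, limma-voom 2209, a test against a 1.5-fold change 233 (170 and 63), and no filter raised the negative calls to 954. limma-voom called 3968 genes for the triple mutant against daf-2 (1966 up, 2002 down). Replicate numbers showed no pairing common to all genotypes: 2 of 18 same-numbered pairs had a correlation of deviations over 0.1, from -0.15 to 0.13. Those 2 were N2 against daf-2, whose same-numbered pairs were at 0.109, 0.127 and 0.087. Pairing between N2 and daf-2 alone was not tested. With the replicate number as a block 1151 genes were called (706 and 445), 1103 of them among the 1526.

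Genes with opposite spr effects numbered 266 by DESeq2, 318 by limma-voom, 308 without a filter, 1336 by sign alone and 90 at 2-fold in each background. Those with the same direction numbered 44, 33, 67 and 190 in the first 4 of these settings and 29 with a stricter filter. Genes called with daf-2 mutant only were 0 by sign and 251 at 2-fold, those with daf-2 intact only 780 by DESeq2, 702 without a filter, 0 by sign and 187 at 2-fold, and those called in neither 146 with the library name number as a term, 0 by sign, where every gene has a direction in each background, and 982 at 2-fold.

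With 1 library left out, interaction calls ran from 772 to 2505 (504 to 1569 positive, 268 to 936 negative). They were under the count over all 12 by over 1.5 times without daf-2 replicates 2 (925) or 3 (772), triple mutant replicate 3 (923), N2 replicates 1 (958) or 3 (974) and double mutant replicates 1 (940) or 3 (948), and above it without double mutant replicate 2 (2505). The triple mutant against daf-2 gave 1376 to 2841 (698 to 1452 up, 678 to 1389 down), the double mutant against N2 943 to 3139 (394 to 1154 up, 549 to 1985 down), the triple against the double mutant 1582 to 3303 (722 to 1712 up, 860 to 1591 down) and daf-2 against N2 2600 to 4132 (1140 to 1817 up, 1460 to 2315 down). Opposite effects ran from 60 to 396, same direction from 8 to 32, daf-2 background only from 315 to 743, N2 background only from 171 to 1046 and neither from 114 to 288. Among uncalled genes, spr-4 was at 0.000301 by DESeq2 (DESeq2 adjusted p = 1.0) and at -0.27 to 0.19 with 1 library left out, where spr-5 ran from -0.20 to 0.064 and hop-1 from -0.013 to 0.23. On a linear scale 4 called genes turned sign: dyf-3, C06H5.12 and icmt-1, called negative, were at 0.487, 0.543 and 19.1 CPM, and drd-5, called positive, was at -6.43 CPM. The last 3 were named after their values were seen. The causes of these moves were not tested. Genes not called are not shown to multiply. Most 2-fold interactions were missed in the simulation, but its adjusted p cut was stricter than that of the data, so the share missed here is not known.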
